A study of Mus musculus with 8 samples.

Results

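The genes described here encode the chaperones of the endoplasmic reticulum (ER), the machinery of ER-associated degradation (ERAD) and the sensors of the unfolded protein response (UPR). They were taken by symbol from the table of read counts: 32 genes were listed, and all 32 were found among its 55487 genes and passed the filter on low counts, which left 17047 genes for testing. RNA came from the hypothalamus, the brain region that controls the hormonal stress response, feeding and body temperature, of C57BL/6J mice. In the hypoxia group, 4 mice spent 2 hours in a chamber at 7% oxygen with nitrogen as the balance. In the normoxia group, 4 mice were kept at 21% oxygen for the same 2 hours. The series text describes no genotype, transgene or drug in either group, and calls the 4 libraries of each group biological replicates. The study asks how hypoxia changes glucocorticoid receptor function, and the comparison here asks whether the ER folding programme was altered at the RNA level at the end of the exposure.

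Secreted and membrane proteins enter the ER through the translocon, fold with the help of chaperones and disulfide isomerases, and leave for the Golgi. Proteins that fail to fold are pulled back to the cytosol and degraded by ERAD. When unfolded protein accumulates, the sensors IRE1, PERK and ATF6 start the UPR, which raises chaperone and ERAD transcripts through spliced XBP1 and cleaved ATF6 and slows translation through PERK. Neurons that secrete peptides, of which the hypothalamus has many, depend on this machinery. Forming disulfide bonds in the ER uses oxygen as the electron acceptor.

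A DNA feature that ties many of these genes together is the ER stress element (ERSE), the promoter sequence bound by ATF6 and XBP1 together with NF-Y. RefSeq promoter windows (GRCm38.p6, the assembly of mm10), from 250 bases before to 50 bases after the annotated start, were present for 28 of the 32 genes. Both strands were searched for the exact ERSE, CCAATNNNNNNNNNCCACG, and for its shorter second form ERSE-II, ATTGGNCCACG. The ERSE was present in 8 of these 28 genes (28.6%), against 37 of all 27025 genes in the table (0.137%). The 8 were Hspa5, Hsp90b1, Dnajc3, Pdia6, Creld2, Calr, Canx and Syvn1, with 2 matches in Hsp90b1. ERSE-II was present in Dnajb11 and Herpud1, 7.14% of the genes with a window, against 12 genes (0.0444%) of all. The CCACG part of both elements was in 22 of the 28 genes with a window (78.6%, against 35.5% of all genes). TGACGTGG, the core of another XBP1 and ATF6 element, was in 0 of the 28 and in 0.714% of all genes. A match describes the letters of the window and shows no binding. The matches of 7 genes are printed to show the element they have in common: the main chaperones Hspa5, Hsp90b1, Calr and Canx, the ERAD genes Syvn1 and Herpud1 (ERSE-II), and Creld2, whose groups did not overlap. They read 5′ to 3′ on the gene's strand, with the fixed letters of the element in capitals. Where the element lies on the other strand, the capitals read CGTGG and then ATTGG.
Hspa5, chr2:34772017-34772051, strand +: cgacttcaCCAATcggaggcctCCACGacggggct
Hsp90b1, chr10:86705525-86705664, strand -: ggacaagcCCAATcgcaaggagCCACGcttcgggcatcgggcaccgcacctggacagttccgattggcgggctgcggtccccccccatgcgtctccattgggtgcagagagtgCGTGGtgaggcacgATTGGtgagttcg
Creld2, chr15:88819512-88819546, strand +: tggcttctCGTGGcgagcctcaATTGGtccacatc
Calr, chr8:84847067-84847101, strand -: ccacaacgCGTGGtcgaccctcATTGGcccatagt
Canx, chr11:50325792-50325826, strand -: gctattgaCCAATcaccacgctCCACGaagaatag
Syvn1, chr19:6046524-6046558, strand +: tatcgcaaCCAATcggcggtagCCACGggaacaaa
Herpud1, chr8:94386369-94386395, strand +: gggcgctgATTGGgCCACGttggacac

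**Figure D1:**
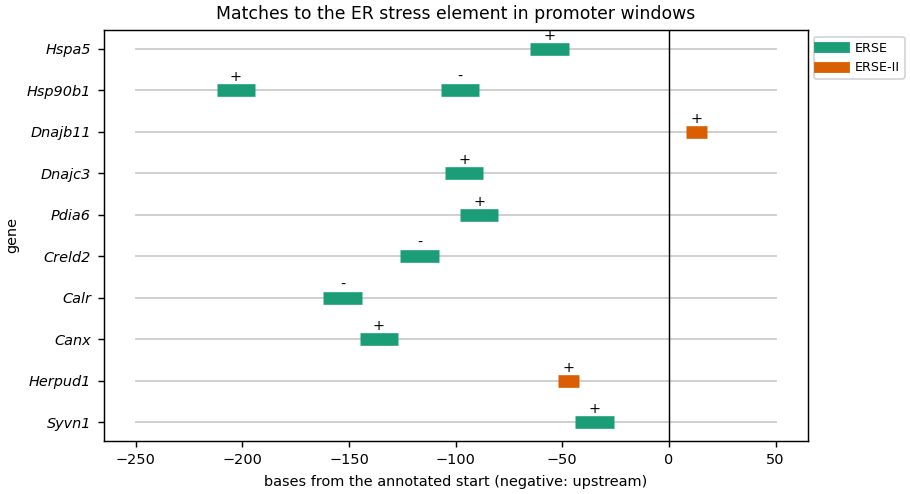
Position of each match to the ERSE (green) and ERSE-II (orange) in the promoter windows of 10 genes. The x axis gives bases from the annotated start, grey lines are the windows, and + or - is the strand of the match relative to the gene. All matches except that of Dnajb11, which spans bases 8 to 18 after the start, lie upstream of the start.

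The libraries held 16994473 to 21694383 counts, of which the 32 genes took 70704 to 84813, or 0.383 to 0.416%. All 10 hypothalamic peptide and transcription factor genes used to check the tissue were detected in every library, for example Pmch at 160 to 374 CPM (the read count as a rate per library size, scaled by the TMM method) and Avp at 42.8 to 98.1 CPM. Normoxia replicate 2 stood apart. Its 8 cortical and hippocampal marker genes summed to 438 CPM, against 29.8 to 104 CPM in the other 7 libraries, and its hypothalamic genes summed to 352 CPM, against 562 to 801 CPM. Pituitary genes summed to 80.4 CPM there and 42.3 CPM in hypoxia replicate 4, against 0.193 to 9.64 CPM in the other 6 libraries, with Lhb at 0 in all. Prl and Gh made up most of these sums, at 40.36 and 38.87 CPM in normoxia replicate 2 and 28.55 and 11.73 CPM in hypoxia replicate 4. The list was not raised as a whole there. Cga was highest in hypoxia replicate 3, at 3.479 CPM, and Tshb in normoxia replicate 1, at 0.5172 CPM. Normoxia replicate 1 was highest in thalamic genes, at 355 CPM against 87.5 to 162 CPM in the other 7 libraries, and in oligodendrocyte genes, at 11360 against 6392 to 9763 CPM. Choroid plexus genes were highest in normoxia replicate 4, at 65.1 CPM against 26.9 to 47.0 CPM, and striatal genes ranged from 214 to 635 CPM. Genes of plasma cells, whose ER is very large, and of B cells summed together to 1.46 to 2.99 CPM. In whole tissue, fewer cells of a type and less RNA per cell cannot be told apart.

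None of the 32 genes changed past the threshold after 2 hours of hypoxia. With edgeR (quasi-likelihood F test, p-values adjusted over all tested genes by Benjamini-Hochberg), 0 were called higher or lower at an adjusted p under 0.05, where 2.15% of all tested genes were called (0.915% higher, 1.23% lower). DESeq2 and limma-voom also called 0. At an unadjusted p under 0.05, edgeR had 3 of the 32 higher and 6 lower, DESeq2 3 and 6, and limma-voom 3 and 5. Over all genes, edgeR had 7.63% higher and 11.7% lower at that level. The 32 log2 fold changes (hypoxia minus normoxia) ran from −0.33 for Sdf2l1 to 0.23 for Pdia5, with a median of −0.0016, beside −0.0085 over all genes. Positive and negative changes numbered 16 each. A p above the threshold does not show equality, so the 95% interval of each change was also computed. All 32 intervals lay within a log2 change of 1 in either direction, that is within 2-fold, and 29 lay within 0.5. Among all 17047 genes, 15025 and 10439 did. The exceptions at 0.5 were Sdf2l1, Creld2 and Pdia5.

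**Figure D2:**
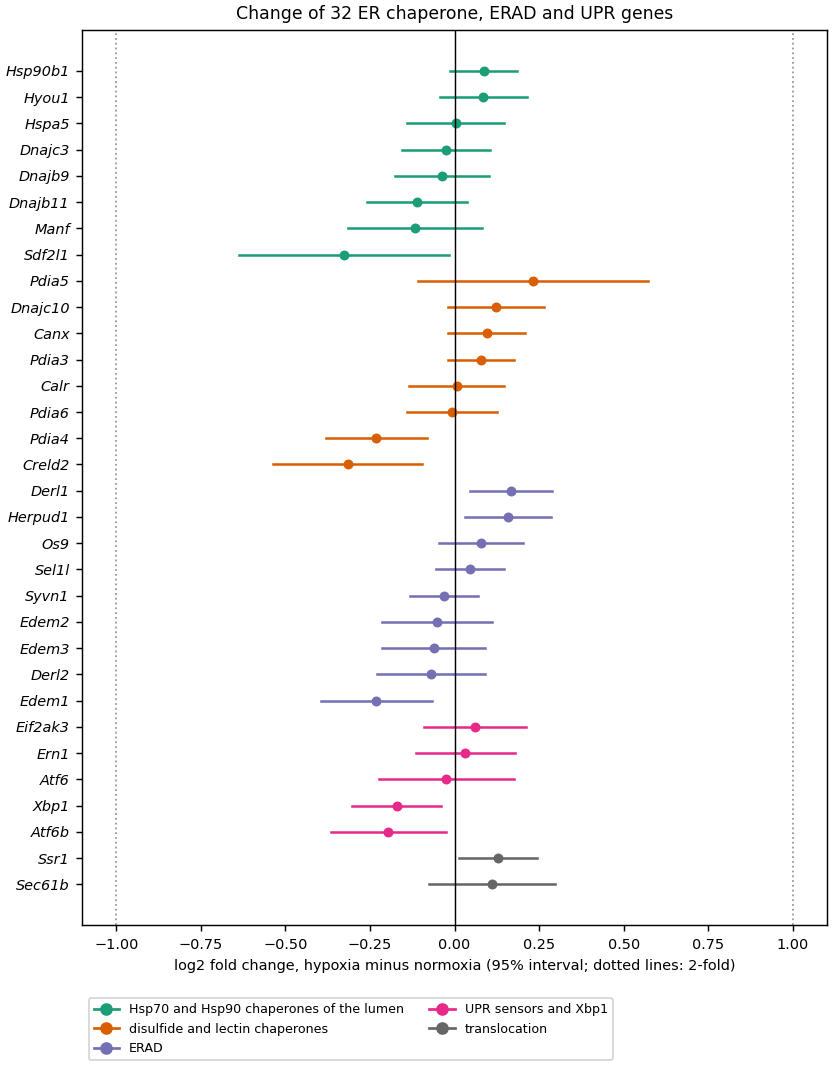
Log2 fold change, hypoxia minus normoxia, of the 32 genes (points) with 95% intervals from edgeR (bars), in 5 colours by role. The intervals extend from −0.64 (Sdf2l1) to 0.57 (Pdia5), inside the dotted lines at a 2-fold change.

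The groups did not overlap for 6 of the 32 genes, with all 4 hypoxia libraries above all 4 normoxia libraries for Canx, Herpud1, Derl1 and Ssr1 and below them for Creld2 and Edem1. These are 4 higher and 2 lower, where 5.69% of all tested genes were without overlap higher and 7.75% lower. Scaling by library size alone, in place of TMM, gave 0 higher and 5 lower, where 13.5% of all genes were without overlap. The direction of this count therefore depends on the scaling. Leaving out normoxia replicate 4 gave 6 higher and 7 lower, where 17.45% of all genes were without overlap in either direction.

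The chaperones of the Hsp70 and Hsp90 class bind unfolded chains in the lumen. Hspa5, which encodes BiP, the main chaperone and the repressor of all 3 sensors, was at 365, 373, 383 and 387 CPM in hypoxia and at 377, 400.3, 397 and 329 CPM in normoxia (replicates 1 to 4 in each list). The hypoxia libraries sat inside the normoxia range. Its log2 change was 0.0037 ± 0.064 (SE; edgeR adjusted p = 0.98), with an interval from −0.14 to 0.15, or −9.25% to 10.8%. Hsp90b1, the ER member of the Hsp90 family, was at 445, 448, 450.0 and 470 CPM in hypoxia and 431, 418, 449 and 409 CPM in normoxia. The lowest hypoxia library was below the highest normoxia library (log2 0.09 ± 0.04; edgeR adjusted p = 0.319). Hsp90b1 shares exon sequence with 1810014B01Rik on the opposite strand.

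Sdf2l1, a partner of BiP and its J-domain cofactors, had the lowest log2 change of the 32 over all libraries. Creld2 was lower with limma-voom and with the replicate number as a block (−0.32 against −0.31). The same held in 4 of the 8 fits with a library left out (normoxia replicates 2 and 3, hypoxia replicates 2 and 4). Without normoxia replicate 2 and hypoxia replicate 4 together, Creld2 was also the lower of the 2 (−0.41 against −0.26). Sdf2l1 was at 7.98, 8.05, 8.46 and 8.24 CPM in hypoxia and at 9.92, 11.7, 11.9 and 7.63 CPM in normoxia. The hypoxia libraries lay close together, 3 normoxia libraries were above them, and normoxia replicate 4 was below. The log2 change was −0.33 ± 0.14 (SE; edgeR adjusted p = 0.237, interval −0.64 to −0.02). Without normoxia replicate 4 it was −0.44. Hyou1, the nucleotide exchange factor of BiP, had a log2 change of 0.09. The J-domain cofactors Dnajb9, Dnajb11 and Dnajc3, which deliver clients to BiP, had −0.04, −0.11 and −0.03. Manf, an ER-resident protein that is secreted under stress and protects neurons, had −0.12. Without normoxia replicate 2, the log2 changes were −0.04 for Dnajb11, −0.06 for Manf and 0.05 for Hyou1, each smaller in size than over all libraries by more than 1.5 times. The sign was not stable for Hspa5, Dnajb9 and Dnajc3, each of which changed sign in at least 1 of the 8 fits with a library left out.

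The disulfide isomerases pair cysteines, and the lectin chaperones calreticulin and calnexin hold glycoproteins while they fold. Pdia4, an isomerase with several thioredoxin-like domains, had the lowest p of the 32. It was at 42.4, 44.7, 45.4 and 47.3 CPM in hypoxia and at 54.3, 56.3, 53.9 and 46.7 CPM in normoxia. Again normoxia replicate 4 was the one that overlapped the hypoxia group (log2 −0.23 ± 0.07; edgeR adjusted p = 0.101). Creld2, an isomerase-like protein known as an ER stress response gene, was at 11.9, 14.0, 12.4 and 15.4 CPM in hypoxia and at 16.8, 15.9, 18.4 and 15.8 CPM in normoxia. All hypoxia libraries were below all normoxia libraries (log2 −0.32 ± 0.10, SE; edgeR adjusted p = 0.125), the closest being hypoxia replicate 4 and normoxia replicate 4. Without normoxia replicate 2 and hypoxia replicate 4 together, a fit added after seeing the data, the change was −0.41 and the adjusted p 0.0408. Creld2 was then the 1 gene of the 32 that was called, where edgeR called 6.98% of all genes. Leaving out either library alone gave adjusted p of 0.101 and 0.0594.

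Calr was at 368 to 392 CPM in hypoxia and 340 to 418 CPM in normoxia, a log2 change of 0.0060 (interval −0.13 to 0.15). Canx was at 559 to 581 CPM in hypoxia and 485 to 556 CPM in normoxia, without overlap between the groups and with normoxia replicate 2 lowest (log2 0.09; edgeR adjusted p = 0.344). Without that library the log2 change of Canx was 0.06. Pdia3, the isomerase that works with the 2 lectin chaperones, had 0.08, Pdia6 −0.0069 and Dnajc10, a J-domain reductase that prepares clients for ERAD, 0.12. Without normoxia replicate 2 the log2 change of Dnajc10 was 0.07. Pdia5 had the highest change over all libraries, 0.23, with an interval from −0.11 to 0.57, and the fewest counts behind it, at 2.87 to 4.64 CPM. It was 0.15 without normoxia replicate 1, its lowest library, and was not the highest of the 32 in that fit or in those without hypoxia replicate 3 or 4.

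ERAD recognises misfolded glycoproteins through mannose-trimming enzymes and lectins and moves them through a complex around the ubiquitin ligase HRD1, the product of Syvn1. Herpud1, a scaffold of that complex whose gene responds strongly to ER stress, was at 63.7, 73.0, 68.9 and 64.7 CPM in hypoxia and at 63.1, 58.3, 62.4 and 58.6 CPM in normoxia. The groups were separate by a narrow margin, between hypoxia replicate 1 and normoxia replicate 1 (log2 0.16 ± 0.06, SE; edgeR adjusted p = 0.168, interval 0.03 to 0.28). Derl1, a membrane protein of the retrotranslocation channel, was at 92.0, 88.6, 87.9 and 85.7 CPM in hypoxia and at 75.5, 74.2, 85.5 and 80.6 CPM in normoxia. Its groups were also separate, with 85.7 and 85.5 CPM as the nearest libraries (log2 0.17 ± 0.05; edgeR adjusted p = 0.138). A transcript of Gm35638 is 95.4% identical to Derl1 over 652 bases, so reads could be split between them.

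Edem1, which trims mannose from misfolded glycoproteins, went the other way. It was at 21.5, 24.3, 22.2 and 23.4 CPM in hypoxia and at 29.0, 25.0, 25.2 and 28.0 CPM in normoxia, again without overlap (log2 −0.23 ± 0.07, SE; edgeR adjusted p = 0.13). Without normoxia replicate 1, its highest library, the log2 change was −0.19. Edem2 and Edem3, its paralogs, had log2 changes of −0.05 and −0.06, with intervals that included 0. The difference between Edem1 and its paralogs was not tested. Sel1l, the adaptor of HRD1, had 0.05, Syvn1 −0.03, Derl2 −0.07 and the lectin gene Os9 0.08. Of the 9 ERAD genes, edgeR had 2 higher and 1 lower at an unadjusted p under 0.05 and 0 after adjustment.

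**Figure D3:**
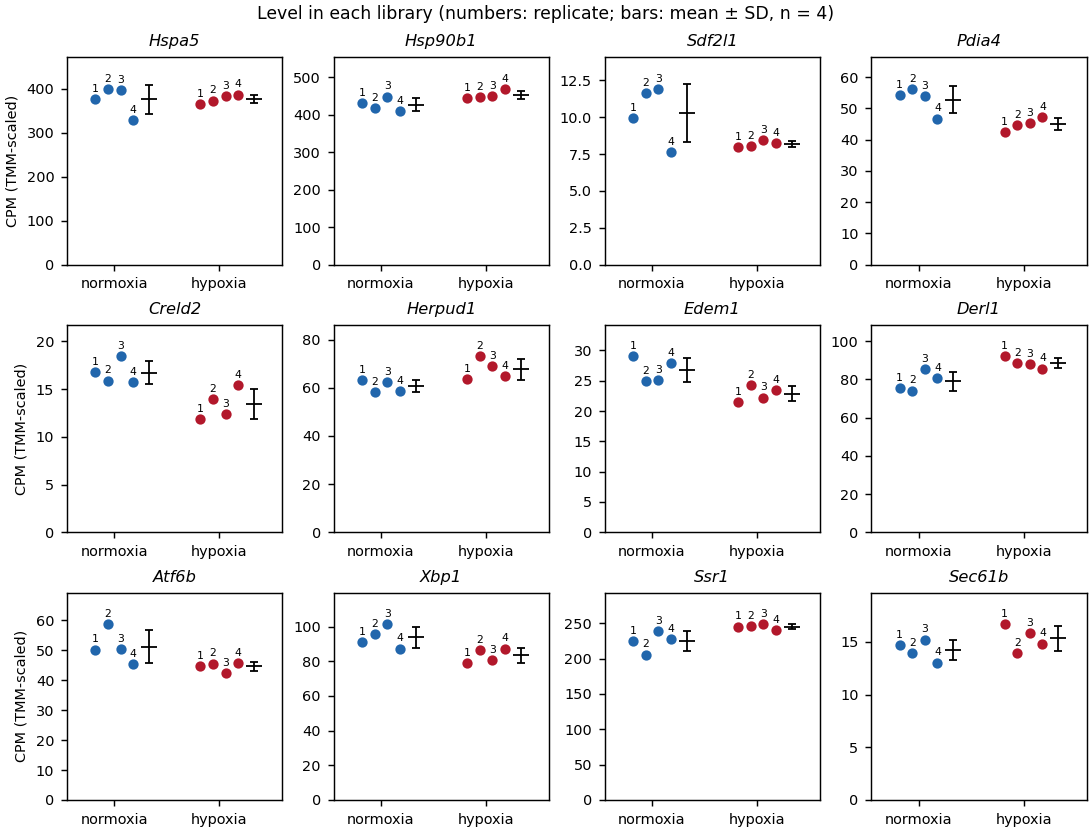
TMM-scaled CPM of 12 genes in each of the 8 libraries, normoxia in blue and hypoxia in red, with the replicate number above each point and the mean ± SD (n = 4) as a black bar. In the panels of Sdf2l1 and Pdia4, normoxia replicate 4 lies with or below the hypoxia libraries, and in those of Creld2, Herpud1, Edem1, Derl1 and Ssr1 the groups do not overlap.

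The 3 sensors span the ER membrane and are themselves expressed at low to moderate levels. Ern1, which encodes IRE1 alpha, was at 19.2 to 21.74 CPM in hypoxia and 19.9 to 21.65 CPM in normoxia (log2 0.03, interval −0.12 to 0.18). Eif2ak3, which encodes PERK, was at 31.7 to 36.6 CPM in hypoxia and 30.8 to 34.5 CPM in normoxia (log2 0.06, interval −0.09 to 0.21), and overlaps Gm43292 on the opposite strand. Atf6 was at 49.2 to 55.9 CPM in hypoxia. In normoxia it was at 49.1 to 51.6 CPM in 3 libraries and at 64.1 CPM in replicate 2. Its log2 change was −0.02, and 0.08 without that library.

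Atf6b, the paralog of Atf6, was at 44.8, 45.6, 42.4 and 45.8 CPM in hypoxia and at 50.2, 58.7, 50.4 and 45.3 CPM in normoxia. Normoxia replicate 2 was highest, and replicate 4 was inside the hypoxia range (log2 −0.20 ± 0.08; edgeR adjusted p = 0.203). Without normoxia replicate 2, which also had the highest sum of cortical markers, the change was −0.12, a move of more than 1.5 times. The part of those cells in the value was not tested. Xbp1, whose mRNA is cut by IRE1 to make the active transcription factor, was at 78.8, 86.5, 80.8 and 87.4 CPM in hypoxia and at 91.3, 95.6, 101 and 87.3 CPM in normoxia. Hypoxia replicate 4 and normoxia replicate 4 were within 0.1 CPM of each other, and the other libraries were apart (log2 −0.17 ± 0.06, SE; edgeR adjusted p = 0.156). The interval, −0.30 to −0.04, corresponds to 19.0% to 2.67% less. Counts per gene add the spliced and unspliced forms of Xbp1, so IRE1 activity could not be read from them.

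Ssr1, a subunit of the translocon-associated protein complex, was at 245.2, 246.0, 248.6 and 240.7 CPM in hypoxia and at 224.9, 205.5, 239.3 and 227.6 CPM in normoxia. All hypoxia libraries were above all normoxia libraries (log2 0.13 ± 0.05; edgeR adjusted p = 0.215), and the change was 0.09 without normoxia replicate 2, its lowest library. Sec61b, a small subunit of the translocon, was at 16.7, 14.0, 15.9 and 14.8 CPM in hypoxia and at 14.7, 13.9, 15.2 and 13.0 CPM in normoxia, with overlap (log2 0.11 ± 0.08; edgeR adjusted p = 0.499). Sec61b has 3 near-identical copies among the annotated transcripts, Gm10320, Gm33666 and Gm5870, so its level is uncertain.

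Per kilobase of exon, the order of levels in normoxia was led by Calr at 131 ± 11.2, Canx at 113 ± 7.07, Hsp90b1 at 106 ± 4.28 and Hspa5 at 88.9 ± 7.77 CPM per kb (SD, n = 4). The ranges of Calr and Canx overlapped, as did those of Canx and Hsp90b1 and of Hspa5 and Pdia3. Such ranges ignore that the genes were measured in the same libraries, and the order of neighbours was not tested. Pdia3 followed at 76.7 ± 2.88, Os9 at 58.2 ± 3.11, Pdia6 at 32.9 ± 2.07 and Xbp1 at 28.9 ± 1.86 CPM per kb. The 3 sensors were near the bottom, with Atf6 at 5.79 ± 0.78, Eif2ak3 at 5.29 ± 0.285 and Ern1 at 2.50 ± 0.0983 CPM per kb, and Pdia5 was last at 1.26 ± 0.155. The genes with an ERSE had a median level of 60.9 CPM per kb in normoxia, against 17.1 CPM per kb for the 20 with a window and no ERSE. Their changes with hypoxia were centred alike, with a median log2 change of −0.0016 for the 8 with an ERSE (range −0.32 to 0.09) and −0.0023 for the 20 without (range −0.33 to 0.23). Whether levels or changes differed between these sets was not tested.

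Summed over the 32 genes, expression was 4032 ± 50.9 CPM in hypoxia and 3928 ± 125 CPM in normoxia (SD, n = 4 each). The ranges, 3988 to 4101 and 3772 to 4060 CPM, overlapped. Within normoxia, 17 of the 32 genes were lowest in replicate 4, among them Hspa5, Hsp90b1, Calr, Pdia3, Pdia6, Sdf2l1, Pdia4 and Manf. Normoxia replicate 2 was the highest of its group for 11 genes and the lowest for 10. The same counts were not taken over all genes, so they are not read as particular to the 32. The median coefficient of variation was 4.21% in hypoxia (1.20 to 14.1%) and 6.62% in normoxia (3.41 to 19.3%). The standard deviation of log2 CPM was larger in normoxia for 23 of the 32 genes, as it was for 11388 of 17033 genes overall.

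**Figure D4:**
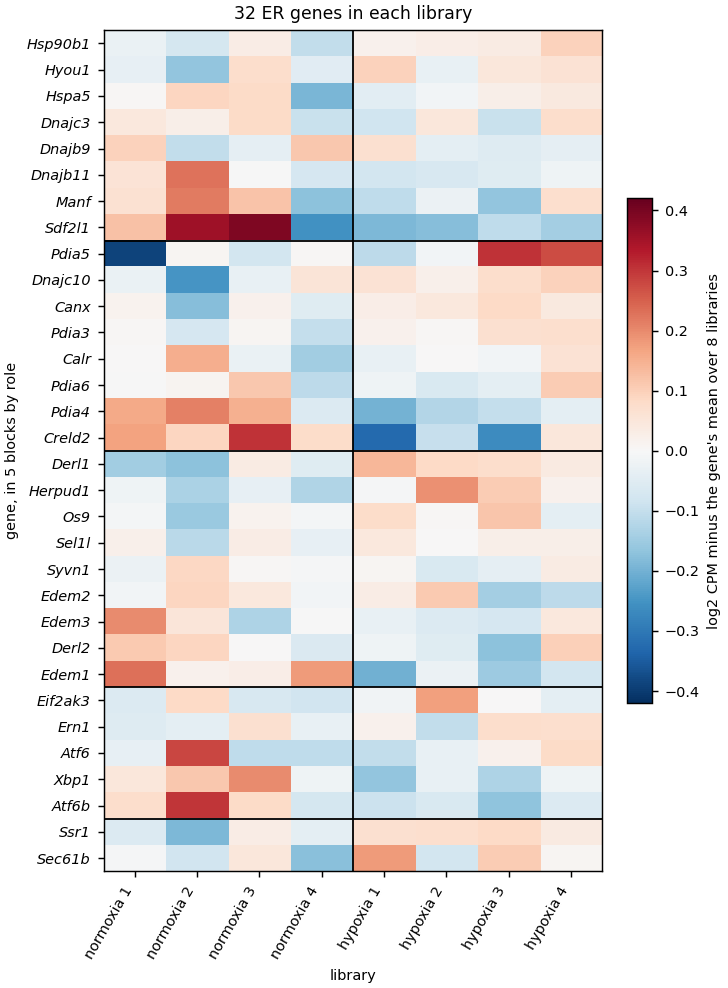
Log2 CPM of the 32 genes in the 8 libraries, each gene relative to its own mean over the libraries (red above, blue below), in 5 blocks by role. Sdf2l1, Pdia4 and Creld2 are red in normoxia replicates 1 to 3 and mostly blue in hypoxia, while normoxia replicate 4 is blue for most chaperones.

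Lists of other ER genes gave the setting for these values. Of 92 related genes tested, edgeR called 2 higher and 0 lower. Over all tested genes it called 0.915% higher and 1.23% lower, or 2.15% in either direction, so the count of 2 was near the background share. Both related genes were in the list for UPR regulation and the output of PERK, the kinase that phosphorylates the translation factor eIF2. limma-voom called the same 2, where it called 2.44% of all genes. DESeq2 called them with Tusc3 (higher) and Ppp1r15b (lower), where it called 5.69% of all genes. Trib3, a pseudokinase gene induced through ATF4, rose from 0.517, 0.638, 0.804 and 0.772 CPM in normoxia to 2.13, 2.08, 2.51 and 1.80 CPM in hypoxia. No libraries overlapped, and the level stayed low, at 11 to 52 counts per library (log2 1.64 ± 0.20, SE; edgeR adjusted p = 0.0103). Ppp1r15a, which encodes the phosphatase subunit GADD34 that reverses eIF2 phosphorylation, rose from 12.9, 16.2, 14.9 and 15.3 CPM to 21.4, 26.4, 27.8 and 18.6 CPM. The groups were separate, with hypoxia replicate 4 nearest to normoxia (log2 0.67 ± 0.13, SE; edgeR adjusted p = 0.041). With each library left out in turn, Trib3 was called in 7 of 8 fits and Ppp1r15a in 2 of 8, those that dropped normoxia replicate 2 or hypoxia replicate 4. Trib3 missed the threshold without hypoxia replicate 1, where edgeR gave an adjusted p of 0.052.

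The RNAs of the transcription factors known to link PERK to those genes were not called. The amount and activity of their proteins were not measured. Atf4 was at 96.1 to 104 CPM in hypoxia and 96.2 to 109 CPM in normoxia (log2 −0.02, interval −0.13 to 0.09). Ddit3, which encodes the ATF4-induced factor CHOP, was at 11.8 to 14.4 and 11.7 to 15.5 CPM (log2 −0.0003, interval −0.24 to 0.24). Ppp1r15b, the constitutive counterpart of Ppp1r15a, was at 59.4 to 69.5 CPM in hypoxia and 71.4 to 76.1 CPM in normoxia (log2 −0.21; edgeR adjusted p = 0.0816). Atf3, a stress-induced factor, was at 0.699 to 1.49 CPM in hypoxia and 0.376 to 1.22 CPM in normoxia (log2 0.72, interval −0.14 to 1.58; edgeR adjusted p = 0.337). These 4 genes were named after their values were seen.

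In the other 3 lists edgeR called 0 genes. At an unadjusted p under 0.05, the translocon list had 3 higher and 0 lower, the folding list 5 and 2, and the ERAD list 6 and 1, beside 3 and 2 of 20 in the list for UPR regulation and PERK output. The shares over all genes at that level were 7.63% higher and 11.7% lower. Of 25 genes for the translocon, signal peptidase and glycan transfer, the lowest p was that of Tusc3, an oligosaccharyltransferase subunit, at 131, 130.3, 137 and 127.5 CPM in hypoxia and 112, 119.5, 117.2 and 117.4 CPM in normoxia (log2 0.17; edgeR adjusted p = 0.0711). The groups did not overlap, and DESeq2 gave Tusc3 an adjusted p of 0.0151. Of 25 genes for oxidative folding and glycoprotein quality control, it was Ero1b, an oxidase that passes electrons from disulfide isomerases to oxygen, at 18.6, 17.5, 17.8 and 18.5 CPM in hypoxia and 26.2, 21.0, 22.1 and 19.98 CPM in normoxia (log2 −0.30; edgeR adjusted p = 0.106). All hypoxia libraries of Ero1b were lower, the log2 change was −0.21 without normoxia replicate 1, and the gene also has an ERSE in its promoter window. Of 22 other ERAD genes, it was Ufd1, a cofactor of the segregase p97, at 85.8, 86.7, 85.6 and 77.2 CPM in hypoxia and 72.6, 74.3, 72.8 and 76.3 CPM in normoxia (log2 0.18; edgeR adjusted p = 0.0901). Its groups were separate, with hypoxia replicate 4 nearest to normoxia. The medians of the 4 related lists ran from 0.0005 to 0.06.

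**Figure D5:**
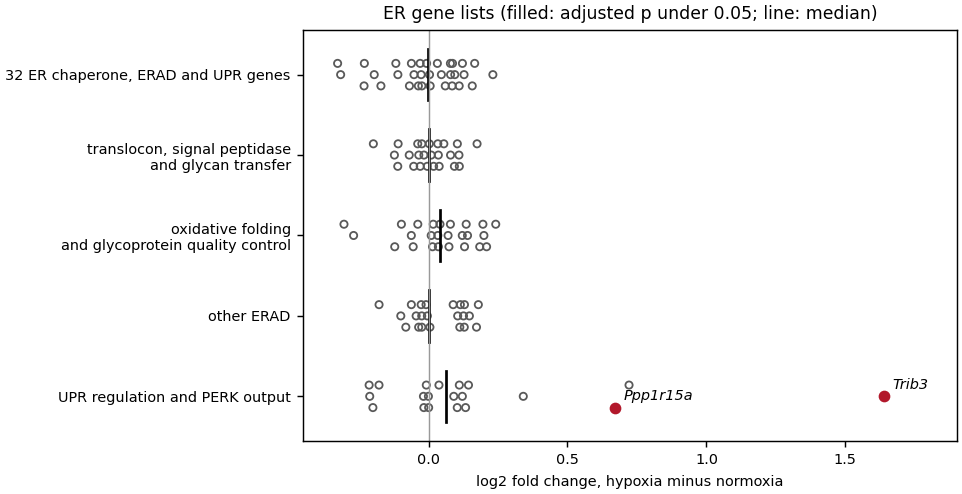
Log2 fold change, hypoxia minus normoxia, of the 32 genes and of 4 lists of related ER genes (1 circle per gene; vertical line, median of the list). Filled circles passed an adjusted p under 0.05 in edgeR: Trib3 at 1.64 and Ppp1r15a at 0.67.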

How the data were processed

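Polyadenylated RNA of 8 hypothalamus samples was sequenced with a strand-specific kit, per the labels' protocols. The authors deposited raw read counts per Ensembl gene. Build mm10 and the tools featureCounts, HISAT2 2.0.4, HISAT, Trimmomatic, SAMtools and DESeq2 are named, per the submitters' processing notes, with no roles given. How strand and multi-mapped reads were counted, and with which annotation, is not given in the sources used here. Exons of 8 of the 32 genes overlap a gene on the opposite strand and those of 3 one on the same strand. Symbols were matched for 55141 of 55487 IDs, and exon lengths came from GENCODE M21.

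Columns were assigned from the descriptions, which hold the same short names. Counts were tested in R 4.3.3 with edgeR 4.0.16 (filterByExpr with minimum count 10 and minimum total 15, TMM, quasi-likelihood F test on all 8 libraries, group as the only term). Adjusted p-values are Benjamini-Hochberg over all 17047 genes, called under 0.05. Intervals (95%) use the standard error implied by the F statistic. CPM are TMM-scaled. Alternatives used DESeq2 1.42.0 and limma 3.58.1, other scalings and filters, and each library left out. The 4 libraries of a group are called biological replicates in the series text. The p-values rest on the spread among libraries of a group, estimated for each gene partly from that of the other genes.

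Every listed gene is named. Values per library are given for Hspa5, Xbp1, Herpud1 and the 2 lowest p in each role, and from related lists for called genes or the lowest p. Ranges per group of other genes serve the comparisons. The members and lists were chosen with earlier results of these data known. Near-identical copies were transcripts at least 95% identical over at least 200 bases. Protein sequences were not used here.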

Additional observations from a re-analysis of the deposited data

Results flagged for a closer look

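In 5 of 74 groups of 4 libraries, over the 32 genes and the 5 related genes named by rule, 1 library lay far from the other 3 (by Dixon's ratio of that gap to the group's range). Chance gives about 1 in 20 groups. Of these, 3 were normoxia replicate 2: Atf6 at 64.1 CPM against 49.1 to 51.6, Eif2ak3 at 34.5 against 30.8 to 31.3, and Os9 at 140.8 against 156 to 159. Without that library the log2 changes were 0.08 for Atf6, 0.10 for Eif2ak3 and 0.05 for Os9, and edgeR called none of the 3. The others were Dnajb9 in hypoxia replicate 1, at 50.6 CPM against 46.6 to 47.1, and Ufd1 in hypoxia replicate 4, at 77.2 CPM against 85.6 to 86.7. Without hypoxia replicate 4, edgeR called Ufd1 (log2 0.22, adjusted p = 0.0324).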

How the results depend on the processing

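The count of 0 called among the 32 genes was the same under the other test, scaling, filter, threshold, block and leave-one-out settings and under edgeR's newer quasi-likelihood fit, added after seeing the data. It was 1 (Creld2) without normoxia replicate 2 and hypoxia replicate 4 together, also added, where edgeR called 6 related genes and 1195 of all genes. The median log2 change of the 32 ran from −0.0316 (without normoxia replicate 4) to 0.0257 (without normoxia replicate 2). With 1 library left out, 6 to 13 of the 32 were without overlap, where 15.01 to 21.96% of all genes were, and 0 to 4 related genes were called and 26 to 693 of all genes. The sign of the log2 change held in all 8 such fits for 25 of the 32 genes and not for Hspa5, Dnajb9, Dnajc3, Pdia6, Calr, Edem3 and Atf6. The related and all-gene counts were 4 and 958 with DESeq2, and 5 and 1058 at an adjusted p under 0.1. With the replicate block they were 0 and 21, and Trib3 and Ppp1r15a had adjusted p of 0.0763 and 0.106. Deviations of same-numbered libraries correlated at 0.037, −0.105, 0.043 and −0.028, and no hypoxia library correlated best with its own number, so the numbers were not taken as pairs. The cause of these shifts was not tested. Depth limits Pdia5, with 61 to 96 counts per library, and Trib3.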

Other observations

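The ERSE of Creld2 lies at chr15:88819520-88819538 and is also the ERSE in the promoter window of Alg12, a mannosyltransferase gene of glycan assembly that starts on the opposite strand. Alg12 had a log2 change of 0.03 (interval −0.14 to 0.19; edgeR adjusted p = 0.874), beside −0.32 (−0.54 to −0.10) for Creld2. The difference between the 2 genes was not tested.

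Outside the 32 genes, an ERSE was found in 29 genes, of which 13 passed the filter on low counts. Of these 13, edgeR called 0, and 2 had an unadjusted p under 0.05, Ero1b and Xlr3b (log2 −1.20, adjusted p = 0.123). Over all tested genes, edgeR called 2.15%, and 19.3% had an unadjusted p under 0.05. Xlr3b belongs to a family of near-identical genes, so its count is uncertain. The median log2 change of the 13 was −0.02. Derl3, an ERAD gene with an ERSE that is typical of secretory cells, was at a log2 change of −0.0041 (interval −0.45 to 0.44).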
